A study of Mus musculus with 9 samples.

Results

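The regions described here had an ATAC-seq peak in cells with Pcgf6 knocked down and in the control of the overexpression vector, and no peak in the control of the knockdown vector or in cells overexpressing Pcgf6. The 2 arms of the study are thus opposed at these regions: a peak was listed in the knockdown and not in its control, and none was listed in the overexpression although its control had one. They were chosen by peak presence in the 4 deposited peak lists: peaks on chromosomes 1 to 19 and X were merged, and 15312 of 194733 merged regions had this pattern. These 15312 regions are called the members below.

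ATAC-seq measures where a transposase can insert adaptors into DNA, and so where chromatin is open. The cells were primary dendritic cells grown from C57Bl/6 bone marrow for 9 days in GM-CSF at 20 ng/mL, transduced with retrovirus on day 2, and sorted for CD11c together with human CD8, the reporter of the vector. The groups were HP109, which carries a hairpin RNA against Pcgf6, its control vector LMP8, OE, which carries a cDNA to overexpress Pcgf6, and its control vector mi8. There were 9 libraries: 2 for each vector and 1 input, named for the mi8 vector, against which all 4 lists were called. All groups share the strain, the cytokine, the retroviral transduction and the sort, and the labels do not say whether 2 libraries of a vector came from separate cultures. The authors deposited 1 peak list for each vector, made from both of its libraries, so there is no spread between replicates, no test between vectors was made, and every interval below is an exact 95% binomial interval that covers counting error only. In a sorted population, a site open in fewer cells and a site less open in each cell cannot be told apart.

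Pcgf6 is a Polycomb group RING finger protein. It defines a variant Polycomb repressive complex, PRC1.6, which holds the ubiquitin ligases Ring1 and Rnf2, the DNA-binding pair Mga and Max, E2f6, and L3mbtl2, and which is known for silencing germline genes in mouse embryonic stem cells. In dendritic cells, opening of enhancers and promoters at cytokine, Toll-like receptor and interferon genes accompanies activation, while lineage factors such as Spi1 and Irf8 hold many enhancers open in resting cells.

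Few promoter windows were overlapped by a member. Of 32585 promoter windows in RefSeq (GRCm38.p6, the assembly of mm10, each from 250 bases before to 50 bases after a transcript start), 248 windows of 240 genes were overlapped by a member, and in 124 of them the member covered at least 150 bases. Beside these 248 windows for 15312 members, the 4870 regions in LMP8 with mi8 overlapped 132. The 1692 regions in HP109 with OE overlapped 10, and the 91650 regions in all 4 lists overlapped 13441. Promoters of 4 genes are shown because members lie on them with no peak of LMP8 or OE on the same bases: Celsr3 and Scube2 are among the 5 strongest members over a promoter, Ifnb1 carries a cytokine that dendritic cells make on sensing virus, and Itga2b encodes the megakaryocyte integrin alpha-IIb. The strongest 5 and Ifnb1 were picked after their values were seen. The other 3 of the strongest 5 lie over the gene models Gm16861, Gm33663 and Gm40029. Each sequence runs 5′ to 3′ on the strand of its gene, and capitals mark the bases inside the member.
Celsr3: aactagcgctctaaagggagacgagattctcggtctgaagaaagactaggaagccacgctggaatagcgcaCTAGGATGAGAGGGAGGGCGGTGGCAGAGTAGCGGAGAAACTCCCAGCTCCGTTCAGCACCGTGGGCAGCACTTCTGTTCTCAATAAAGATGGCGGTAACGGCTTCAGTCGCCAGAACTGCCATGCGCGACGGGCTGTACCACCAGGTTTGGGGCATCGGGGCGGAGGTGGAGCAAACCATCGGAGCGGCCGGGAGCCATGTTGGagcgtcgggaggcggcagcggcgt
Scube2: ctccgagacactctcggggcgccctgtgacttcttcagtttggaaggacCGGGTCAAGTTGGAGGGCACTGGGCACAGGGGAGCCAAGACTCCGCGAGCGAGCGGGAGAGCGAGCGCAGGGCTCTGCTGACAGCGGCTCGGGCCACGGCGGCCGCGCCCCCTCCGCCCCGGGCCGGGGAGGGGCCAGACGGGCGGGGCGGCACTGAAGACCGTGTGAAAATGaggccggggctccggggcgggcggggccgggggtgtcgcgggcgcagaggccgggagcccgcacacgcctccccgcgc
Ifnb1: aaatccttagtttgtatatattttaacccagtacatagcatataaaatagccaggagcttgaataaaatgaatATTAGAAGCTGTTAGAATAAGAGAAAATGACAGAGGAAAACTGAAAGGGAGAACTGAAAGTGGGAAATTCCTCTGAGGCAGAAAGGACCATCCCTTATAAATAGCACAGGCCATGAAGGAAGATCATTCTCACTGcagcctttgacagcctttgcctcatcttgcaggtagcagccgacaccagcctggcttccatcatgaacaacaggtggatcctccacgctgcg
Itga2b: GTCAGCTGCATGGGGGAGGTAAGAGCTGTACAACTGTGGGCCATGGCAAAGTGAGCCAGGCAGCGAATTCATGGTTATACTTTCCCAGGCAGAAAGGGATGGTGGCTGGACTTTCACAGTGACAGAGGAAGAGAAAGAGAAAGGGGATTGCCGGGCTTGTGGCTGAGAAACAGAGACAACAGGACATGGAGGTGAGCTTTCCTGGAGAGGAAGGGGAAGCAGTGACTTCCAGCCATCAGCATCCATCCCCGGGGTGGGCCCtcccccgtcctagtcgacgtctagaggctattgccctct
The windows are chr9:108825795-108826094 on the plus strand for Celsr3, a planar cell polarity cadherin, chr7:109865630-109865929 on the minus strand for Scube2, a secreted protein of Hedgehog signalling, chr4:88522745-88523044 on the minus strand for Ifnb1, and chr11:102469834-102470133 on the minus strand for Itga2b. The member at Ifnb1, chr4:88522837-88522971, covers the 135 bases from 177 to 43 bases before the start, the stretch in which the virus-response enhancer of this gene is known to lie. Its summit pileup, the number of reads stacked at the highest point, was 15 in HP109 and 16 in mi8. At the local background of this site, a pileup of 6 would have sufficed for a call in LMP8 and of 8 in OE. The nearest LMP8 peak was 0.438 kb away and the nearest OE peak 2.55 kb away. The member at Celsr3 had a pileup of 21 in HP109 and 23 in mi8, against 8 needed in LMP8 and 10 in OE. The member at Scube2 had 18 in HP109 and 20 in mi8, against 7 needed in LMP8 and 8 in OE, and the one at Itga2b had 10 in HP109 and 14 in mi8, against 8 needed in each absent list. The Itga2b member was thus close to what a call needed, while the other members shown stood at 2 times the need or more.

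Members overlapped 5 microRNA hairpins, out of 124 hairpins with any merged region among 1005 in the RefSeq table. This is 4.03% of hairpins (1.32 to 9.16), while 7.86% of all merged regions are members, a share counted over regions and not hairpins. The 5 hairpins are shown because miR-21a is a major microRNA of myeloid cells and miR-30c belongs to the broadly expressed miR-30 family. Mature 5p arms are printed 5′ to 3′ with the seed, bases 2 to 8, in capitals.
miR-21a-5p: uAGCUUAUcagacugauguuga
miR-30c-5p: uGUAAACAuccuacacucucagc
miR-301b-5p: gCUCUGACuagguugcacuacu
miR-6416-5p: cUCCGUAUcaucugcucuucu
miR-7013-5p: uAUGAAGAggccaguguuguag
The 5 seeds differ from one another. The member at Mir21a, chr11:86584022-86584203, spans the hairpin within Vmp1 and was weak, with a −log10 q of 3.89 in HP109 and 3.36 in mi8. The strongest was at Mir6416 on chromosome 7, within Trpm1, with 14.1 in HP109 and 4.44 in mi8. The member at Mir7013 also spans its hairpin, while those at Mir30c-1, Mir6416 and Mir301b overlap only part of theirs. Open chromatin over a hairpin says nothing of the level of the mature microRNA, which was not measured.

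The lengths of the lists bear on how many members there are. HP109 held 170077 peaks against 140716 in LMP8, and OE held 111488 against 170946 in mi8, so the pattern joins the longer list of each arm. Of the 171506 regions in HP109 or LMP8, 39055 (22.8%) were in HP109 and absent from LMP8, and of the 170954 regions in OE or mi8, 66656 (39%) were in mi8 and absent from OE. The members made up 7.86% of all merged regions, and this was the most frequent of the 6 patterns in which exactly 2 lists have a peak. The mirrored pattern for the knockdown arm, LMP8 with mi8, held 4870 regions, HP109 with OE 1692, LMP8 with OE 175, HP109 with LMP8 2773 and OE with mi8 1476. Regions in all 4 lists numbered 91650, or 47.1%.

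**Figure D1:**
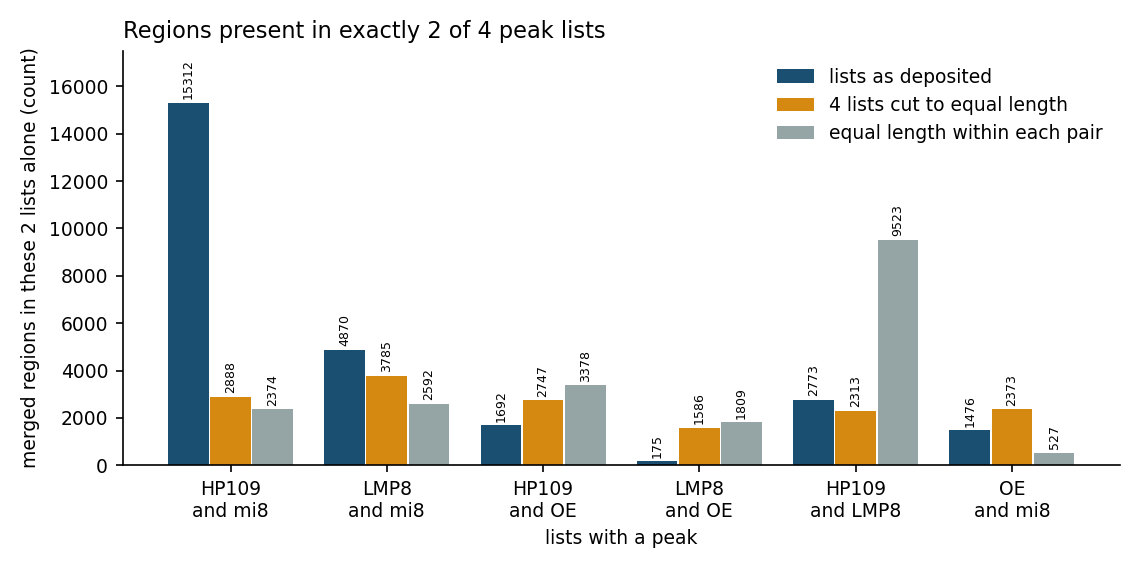
Count of merged regions present in exactly 2 of 4 peak lists (vertical axis) by the lists that have a peak, with the lists as deposited, with all 4 cut to equal length by −log10 q, and with equal length within each pair of vector and control. The 15312 regions in HP109 and mi8 alone are the most frequent as deposited, and 2888 and 2374 regions have this pattern under the other settings, fewer than the 3785 and 2592 in LMP8 and mi8 alone.

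With every list cut to its 111488 strongest peaks, the pattern held 2888 regions, and it was no longer the most frequent: LMP8 with mi8 held 3785, HP109 with OE 2747, OE with mi8 2373, HP109 with LMP8 2313 and LMP8 with OE 1586. With the lengths made equal only within each arm, 2374 regions had the pattern, against 2592 in LMP8 with mi8 and 3378 in HP109 with OE. The excess of members over the other patterns was therefore present in the lists as deposited and absent at equal length. A peak below the cut counts as absent, so a region can enter a pattern that it did not have in the full lists: with all 4 lists cut, 1204 of the 2888 regions were members as deposited, and with equal length within each arm 2373 of the 2374 were.

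Presence in one arm was next set against presence in the other. Among regions in HP109 and not LMP8 that were in exactly 1 of OE and mi8, 1692 were in OE and 15312 in mi8, so 90.0% (89.6 to 90.5) were in mi8. Among regions in LMP8 and not HP109 the same share was 96.5% (96.0 to 97.0), with 175 in OE and 4870 in mi8. The mi8 share was thus lower on the HP109 side than on the LMP8 side, as in all 5 bins of peak strength, where it ran between 88.5% and 91.4% on the HP109 side and between 95.4% and 98.7% on the LMP8 side. At equal list length the shares were 51.3% on the HP109 side and 70.5% on the LMP8 side, and at equal length within each arm 41.3% on the HP109 side and 58.9% on the LMP8 side, in the same order. Read the other way, 90.6% (89.2 to 91.9) of the regions in OE and not mi8 that split the knockdown arm were in HP109, against 75.9% (75.3 to 76.5) of those in mi8 and not OE. Among regions in exactly 1 list of each arm, presence in HP109 thus went with presence in OE more often than presence in LMP8 did. These counts rest on the same presence calls that define the members, and the strength bins and cut lists reuse those peaks. The counts describe the lists and cannot decide how the vectors relate, and no test over samples was possible.

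The members were weaker than most peaks of their lists. Their summit pileup in HP109 had a median of 12 (quartiles 10 and 15, range 6 to 84) and in mi8 a median of 15 (quartiles 12 and 18, range 7 to 98), while the median over all peaks of these lists was 21 in HP109 and 24 in mi8. Low values were shared by all patterns of 2 lists. The lower of the 2 within-list percentiles of −log10 q had a median of 13.9 in the members, against 10.9 in LMP8 with mi8 and 10.5 in HP109 with OE. It was 10.2 in OE with mi8, 9.37 in HP109 with LMP8 and 5.77 in LMP8 with OE. The lists differ in length, so an equal percentile can stand for an unlike −log10 q. Pileups are whole numbers recovered from the fold and −log10 p that the authors deposited. The pileup that the lowest −log10 p of the absent list would have called at the same local background had a median of 7 for LMP8 and of 8 for OE. In 2129 members (13.9%) the HP109 pileup was within 2 reads of the LMP8 need. In 2357 (15.4%) the mi8 pileup was at most 2 reads above the OE need or below it, down to 0.875 times the need. The lowest −log10 p was 3.17 in OE and 3.02 in mi8. A member below the OE need would thus go uncalled in OE at an equal pileup. Both pileups were at least 2 times the need in 2097 members (13.7%) and at least 3 times in 53 (0.346%). A −log10 q of 10 or more in both lists was found in 617 members (4.03%) and of 20 or more in 3. Only 80 members (0.522%) ranked in the upper 50% of both lists. The values at the absent sites themselves are not in the peak lists, so how far LMP8 or OE fell short was not measured.

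**Figure D2:**
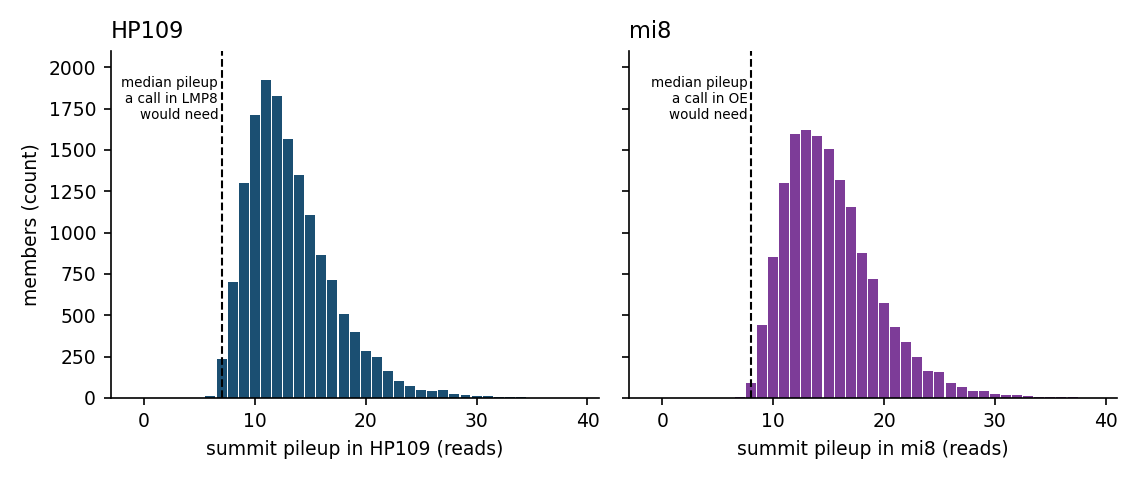
Number of members (vertical axis) by summit pileup in reads (horizontal axis, shown up to 40) in HP109 and in mi8. The dashed lines mark the median pileup that would have sufficed for a call in the absent list, 7 in LMP8 and 8 in OE, and most members lie to the right of them with medians of 12 in HP109 and 15 in mi8.

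The strength of a member was taken as the lower of its percentiles in both lists. The strongest member, chr13:76587217-76587380, lies inside Mctp1, a membrane protein with calcium-binding C2 domains. Its −log10 q was 27.4 in HP109 and 39.4 in mi8, and its pileups of 31 in HP109 and 44 in mi8 stood against needs of 7 in LMP8 and 8 in OE. The next, chr4:40133406-40133679, lies 9.59 kb from Aco1, the cytosolic aconitase that also regulates iron metabolism, with pileups of 28 in HP109 and 32 in mi8. The third lies inside Gypc, a red cell membrane glycoprotein also made elsewhere, with 29 in HP109 and 30 in mi8. For these 3 members the observed pileups were 3.75 to 5.50 times what a call in the absent lists needed, yet each had an LMP8 and an OE peak within 4 kb.

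The other 12 of the strongest 15 lay in or nearest to Cacul1, Nrbf2, which acts in autophagy, Myl12b, a myosin light chain, Adgra2, Wapl, the cohesin release factor, Cracr2a, a regulator of calcium entry, Bcat1, which transaminates branched-chain amino acids, Esyt3, Mief1, which acts in mitochondrial fission, Gm30679, Anks6 and Arhgap17. Their −log10 q ran from 18.2 to 26.6 in HP109 and from 17.7 to 20.0 in mi8. Their pileups ran from 24 to 32 in HP109 and from 26 to 31 in mi8. Some lay far from the gene named: 92.6 kb from Nrbf2, 44.1 kb from Myl12b, 30.7 kb from Cacul1, 29.9 kb from Wapl and 8.5 kb from Mief1. The rest of the 12 lay inside the gene named. The member in Arhgap17 lay 0.095 kb from an LMP8 peak and 0.185 kb from an OE peak, and the one in Esyt3 lay over 13 kb from either, so an isolated site and the flank of a shared site both occur among the strongest.

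At the threshold, 5 members of the lowest strength lay in Chd7, Rere, Daglb, Klrh1 and Tgfbr2. Each had a −log10 q of 1.34 in mi8, the lowest in that list, and other members may be tied with them. In HP109 the −log10 q of these 5 ran from 2.61 at Daglb to 8.64 at Tgfbr2. Just outside, 27208 regions had peaks in HP109, mi8 and LMP8 and were kept out by the LMP8 peak alone, the weakest of which had a −log10 q of 1.31, and 5519 were kept out by the OE peak alone, with 1.31 as its lowest. The strongest regions kept out lay in or near Myo5c, Rgs10, Mlf1, Myo1e and Dad1. At Myo5c the −log10 q was 63.6 in HP109 against 23.3 in LMP8, and OE had no peak against 52.2 in mi8.

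Both peaks of a member sat at nearly the same place. The HP109 and mi8 summits lay a median of 22 bp apart, and in 12481 members (81.5%) within 50 bp. In LMP8 with mi8 the median was 28 bp, with 72.4% within 50 bp, and in HP109 with OE it was 24 bp with 79.0%. Many members lay beside a peak of an absent list. An LMP8 or OE peak stood within 500 bp of 3831 members (25%) and within 1 kb of 5878 (38.4%), the median distance was 1717 bp, and 78.2% had a region present in all 4 lists within 10 kb. The median distance to a peak of the absent lists was 796 bp in LMP8 with OE, 1056.5 bp in LMP8 with mi8, 1068 bp in HP109 with LMP8, 2189 bp in OE with mi8 and 2807.5 bp in HP109 with OE, so the members lay between these.

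Members were mostly away from gene ends. Of the 15312, 1145 (7.48%, 7.07 to 7.91) lay within 1000 bp of either end of a protein-coding gene, against 12.6% of all merged regions and 17.0% of regions in all 4 lists. Among patterns of 2 lists, the share was 10.2% (9.41 to 11.1) in LMP8 with mi8 and 6.32% (5.21 to 7.59) in HP109 with OE. The interval of the members thus lies below that of LMP8 with mi8 and overlaps that of HP109 with OE. Inside a gene span lay 8839 members (57.7%), close to the 58.7% of all merged regions, and 7.16% had no gene within 100 kb.

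**Figure D3:**
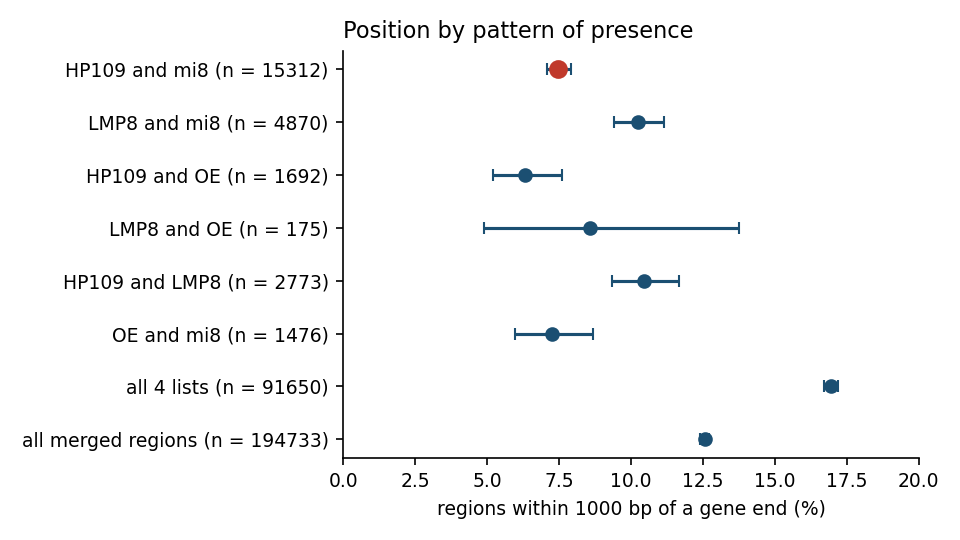
Share of regions within 1000 bp of an end of a protein-coding gene (horizontal axis, %) by pattern of presence (rows), with bars for the exact 95% interval. The members, in red, stand at 7.48%, below LMP8 and mi8 at 10.2% and all 4 lists at 17.0%.

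The intervals of members and of LMP8 with mi8 lay apart in the lower bins of strength. These bins are percentiles within lists of unlike length, so they match rank and not −log10 q. In the lowest bin of strength, below the 10th percentile, 8.90% (8.18 to 9.66) of members lay at a gene end, against 12.0% (10.8 to 13.4) in LMP8 with mi8. From the 10th to the 20th percentile the share was 6.97% (6.25 to 7.75) of members, against 9.90% (8.36 to 11.6) in LMP8 with mi8. From the 20th to the 30th it was 5.77% (4.95 to 6.68) of members, against 6.22% (4.58 to 8.24) in LMP8 with mi8, and the intervals overlapped in this bin and in the stronger ones. Members were spread over all chromosomes, from 7.26% of the regions on chromosome 19 to 8.67% on chromosome 13.

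A member lay at an end of 1214 genes, 8.36% of the 14526 genes with any region at an end. At 877 of them LMP8 and OE each had another peak at an end of the same gene, and at 241 neither had. Among the 15 genes with the strongest members at an end were Pram1, Tnip2 and Tgm2. At Pram1, an adaptor of myeloid cells, chr17:33637557-33637752 had pileups of 29 in HP109 and 27 in mi8. At Tnip2, which restrains NF-kB signalling, chr5:34496214-34496390 had 21 in HP109 and 22 in mi8, and at Tgm2, the tissue transglutaminase, the values were 21 in HP109 and 29 in mi8. At all 3 genes LMP8 and OE had another peak at an end.

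At 5 of these 15 genes neither absent list had a peak at either end: Fbxl17, an F-box protein, Ano7, Papln, Sparcl1, a matricellular protein, and Nppb, the precursor of a natriuretic peptide. At Papln the member overlaps the gene's end, with pileups of 22 in HP109 and 25 in mi8, against needs of 7 in LMP8 and 10 in OE. At Nppb the pileups were 25 in HP109 and 24 in mi8, and the nearest LMP8 and OE peaks lay 9.97 kb away. At Slc32a1, the vesicular GABA transporter, LMP8 had another peak at an end and OE had none. The remaining 6 of the 15 were E030018B13Rik, Nudt16l1, Cntf, A130010J15Rik, Rreb1, a zinc finger factor, and Fgf23, a phosphate hormone, each with another peak of both absent lists at an end. Among the 15, the −log10 q was higher in HP109 than in mi8 at 8.

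Of 281 genes on 16 lists of immune, metabolic, Polycomb and cell type genes that had any region at an end, 23 (8.19%) had a member there, close to the 8.36% of all genes. Among them are cytokine and chemokine genes (Ifnb1, Ccl7, and Tnf with Lta, which share 1 member), a receptor and a kinase of the Toll-like pathway (Tlr2 and Irak1), Cd70 and Socs3 among costimulation and maturation genes, B2m and Cd74 of antigen presentation, Eed, Suz12 and Pcgf2 of Polycomb complexes, Tpi1 and Pgam1 of glycolysis, Myc and Ccnd3 of the cell cycle, and the markers Csf1r of macrophages, Ctsg and Ngp of granulocytes, Pdgfra of stroma and Itga2b of megakaryocytes.

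The member at Tlr2, a receptor for bacterial lipoproteins, had pileups of 18 in HP109 and 21 in mi8 against needs of 8 in LMP8 and 10 in OE. The member at Ccl7, a chemokine that draws monocytes, had 15 in HP109 and 31 in mi8 against needs of 7 in LMP8 and 8 in OE. At Socs3, an inhibitor of cytokine signalling, it had 14 in HP109 and 27 in mi8. These 2 members had a higher −log10 q in mi8 than in HP109, with 9.26 in HP109 and 23.3 in mi8 for Ccl7, and 7.29 in HP109 and 17.3 in mi8 for Socs3. The member shared by Tnf and Lta was weak, with 9 in HP109 and 14 in mi8, and lay 0.14 kb from an LMP8 peak and 0.122 kb from an OE peak. Those of the Polycomb genes were weak too: Eed had pileups of 9 in HP109 and 12 in mi8, Suz12 of 11 in HP109 and 15 in mi8, and Pcgf2 of 7 in HP109 and 12 in mi8, with the LMP8 need also at 7 for Pcgf2. LMP8 and OE each had another peak at an end of all 3. At 16 of the 23 genes both absent lists had another end peak. At Ctsg, Ccl7 and Ifnb1 only LMP8 had, and at Ngp, Pdgfra, Cd70 and Itga2b neither had.

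**Figure D4:**
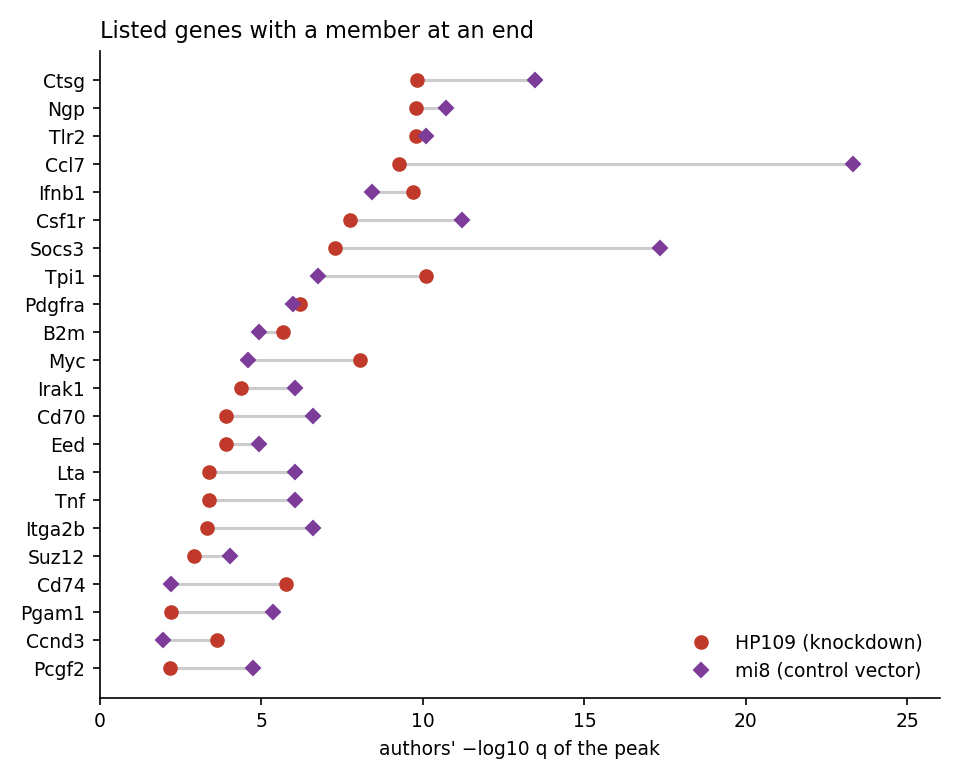
The authors' −log10 q (horizontal axis) of the HP109 peak and the mi8 peak of the member at an end of 22 listed genes (rows, strongest on top), with grey lines joining the 2 values. LMP8 and OE had no peak at these members, and only Ccl7 passes 20, in mi8 at 23.3.

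Counting every region by its nearest gene within 100 kb, 146 of 319 listed genes with a region (45.8%) had a member, against 7436 of 17739 genes overall (41.9%). Most lists resembled the background by this measure. In these list counts, a region at a gene is one assigned to it as the nearest, and it can lie outside the gene span. Of the regions assigned to any gene, 7.83% were members, and the interval of 14 of the 16 lists held this value. In the list of PRC1.6 and core Polycomb genes, 20 of 261 regions were members (7.66%, 4.74 to 11.6). Of these, 7 lay among the 53 regions at Rybp, a shared subunit of variant PRC1. None of the 5 regions nearest to Pcgf6 itself was a member. Of germline genes, the known targets of PRC1.6 in embryonic stem cells, 3 of 73 regions were members (4.11%, 0.856 to 11.5). Near Smc1b 2 of 6 regions were members, and near Stra8 1 of 7. Of dendritic cell lineage genes, 30 of 474 were members (6.33%, 4.31 to 8.91). The genes with most were Ikzf1 with 6 of 62 regions, Irf4 with 5 of 22 and Notch2 with 5 of 60. Leading genes were picked by their member counts, so a gene with many regions can lead a list.

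Among genes of activation, the Toll-like receptor and NF-kB list had 33 members of 493 regions (6.69%, 4.65 to 9.27). Nfkbiz, a nuclear regulator of NF-kB, had 7 of 43, and Tnfaip3, which ends NF-kB signalling, 6 of 59. Cytokines and chemokines had 22 of 379 (5.80%, 3.67 to 8.66), with 6 of 27 at Ptgs2, the inducible cyclooxygenase. Costimulation and maturation genes had 21 of 319 (6.58%, 4.12 to 9.89), with 5 of 33 at Tnfsf4, the ligand of OX40. Antigen presentation genes had 12 of 166 (7.23%, 3.79 to 12.3), with 4 of 22 at Ciita, the switch of class II expression. Counted within 100 kb, each of these lists held members at a share whose interval includes that of all genes. Within 20 kb, members were 22 of 348 regions in the Toll-like receptor and NF-kB list and 11 of 262 for cytokines and chemokines. They were 19 of 274 for costimulation and maturation genes and 12 of 163 for antigen presentation genes. The share over all genes within 20 kb is not given here. Cell cycle genes had 27 of 403 within 100 kb (6.70%, 4.46 to 9.60), with 4 of 28 at Ccnd1 and 4 of 33 at Myc. Developmental Polycomb targets had 13 of 149 (8.72%, 4.73 to 14.5), with 3 of 16 at Gata6 and 3 of 13 at Foxa2.

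Glycolysis and hypoxia genes had 25 members of 471 regions (5.31%, 3.46 to 7.74), an interval just under the 7.83% of all genes. Pfkp, a phosphofructokinase, had 6 of 52 and Vegfa 3 of 45. Interferon-stimulated genes had 7 of 190 (3.68%, 1.49 to 7.44), the lowest share of the 16 lists, and in their case LMP8 with mi8 was the more frequent pattern, with 15 regions (7.89%) against 2.46% of the regions of all genes. The next highest shares of LMP8 with mi8 were 7 of 100 regions (7%) for erythroid and megakaryocyte markers and 6 of 128 (4.69%) for granulocyte and mast cell markers. In both of these lists members were the more frequent, with 11 and 9 regions. Of the 22 regions at interferon-stimulated genes that were in mi8, absent from OE and in exactly 1 of HP109 and LMP8, 31.8% (13.9 to 54.9) were in HP109, against 76.1% (75.5 to 76.7) of such regions over all genes. The 7 members included 3 of 21 regions at Ifih1 and 1 of 15 at Ddx58, both sensors of viral RNA, and 1 of 8 at Cmpk2. Of the members at Ifih1, chr2:62587820-62588152, which lay 7.47 kb from the gene, had a pileup of 13 in HP109 and 21 in mi8.

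The 15 regions in LMP8 and mi8 lay at 8 genes, 5 of them at Ifi44, 3 at Cmpk2, 2 at Ifit2 and 1 each at Ifih1, Oas3, Irf7, Trim25 and Rsad2. The strongest, chr3:151748566-151749052 in Ifi44, had a pileup of 17 in LMP8 and 38 in mi8, with no peak in HP109 or OE. Regions at 1 gene are not independent: without Ifi44, 7 members stood against 10 regions in LMP8 and mi8, and HP109 held 41.2% (18.4 to 67.1). Of the 190 regions, 127 had a peak in HP109 against 141 in LMP8, and 94 in OE against 181 in mi8, so HP109 held fewer of them than LMP8 although its list is the longer one.

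**Figure D5:**
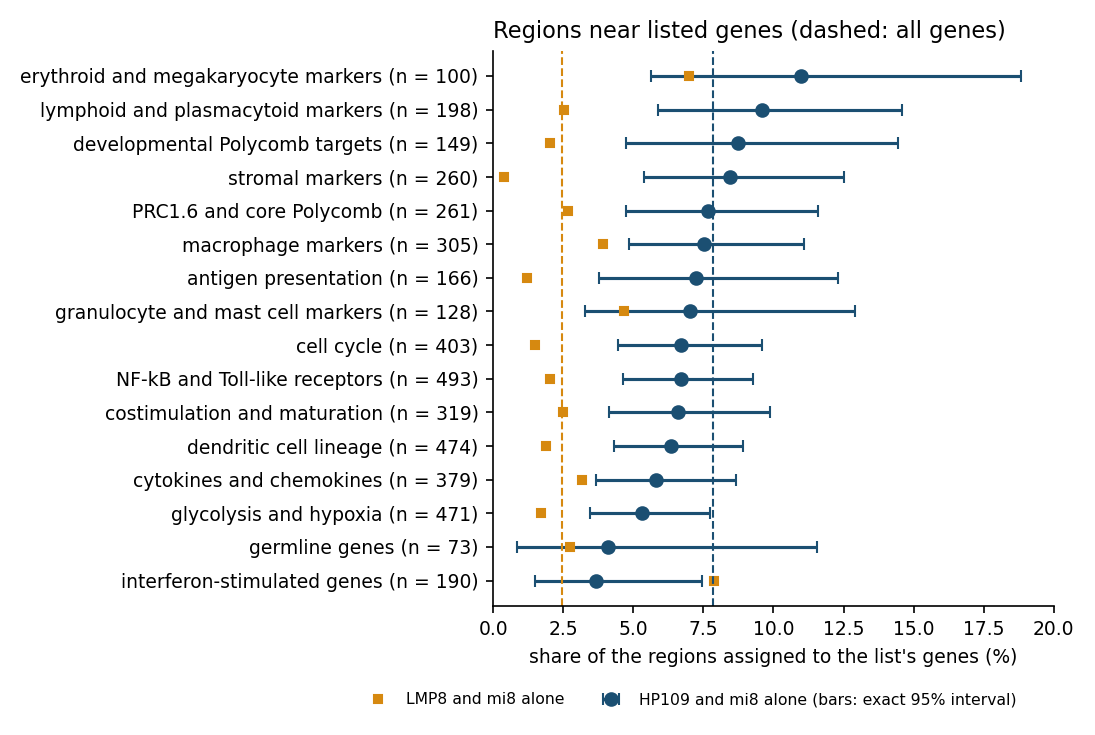
Share of the regions assigned to the genes of each list (rows, number of regions in brackets) that are in HP109 and mi8 alone, with the exact 95% interval, and in LMP8 and mi8 alone (squares). Dashed lines mark the same shares over all genes, 7.83% and 2.46%; interferon-stimulated genes stand at 3.68% and 7.89%.

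The lists of other cell types gave shares of members that include the background. Erythroid and megakaryocyte markers had 11 of 100 (11%, 5.62 to 18.8) and lymphoid and plasmacytoid markers 19 of 198 (9.60%, 5.88 to 14.6). Stromal markers had 22 of 260 (8.46%, 5.38 to 12.5) and granulocyte and mast cell markers 9 of 128 (7.03%, 3.27 to 12.9). Macrophage markers had 23 of 305 (7.54%, 4.84 to 11.1), with 6 of 34 at Marco. All 12 dendritic cell markers, among them Itgax, which encodes CD11c, Flt3, Zbtb46 and Irf8, had a peak at an end in each of the 4 lists. Of 20 granulocyte and mast cell markers, 13 had an end peak in HP109 and 11 in LMP8, against 7 in OE and 12 in mi8. Of 14 stromal markers, 9 had one in HP109 and 8 in LMP8, and 7 in OE and 10 in mi8. Of 18 macrophage markers, 16 had one in HP109, LMP8 and mi8 and 15 in OE. Of 20 lymphoid and plasmacytoid markers, 14 had one in HP109 and 11 in LMP8, and 9 in OE and 12 in mi8. Of 16 erythroid and megakaryocyte markers the counts were 11 in HP109 and 9 in LMP8, and 8 in OE and 10 in mi8. More of these markers thus had an end peak in HP109 and mi8 than in LMP8 and OE in 4 of the 5 lists, in the order of the list lengths within each arm, and their part in the pattern was not tested.

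Of the 114308 merged regions inside gene spans, 7.73% were members. The highest count was at Etv6, an ETS repressor of blood cells, which held 15 members among 108 regions (13.9%). Creb5, Foxp1, Hdac9, Mbnl1 and Zfhx3 held 13 each, among 113, 132, 92, 116 and 109 regions. Arhgap26, Cers6 and Pde4d held 12 each and Dym 11. The 10 genes were picked by their counts. Cers6, a ceramide synthase, and Dym had the highest shares among them, at 17.6% of 68 regions and 18.6% of 59, and Pde4d the lowest, at 6.63% of 181. Of all genes, 5147 held a member, 3251 of them 1 and 257 of them 5 or more.

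The most crowded stretch was chr18:60812353-60829232, 16.9 kb from an end of Cd74, the invariant chain of class II antigen presentation, into its neighbour Tcof1, a nucleolar protein. It held 11 members among 28 merged regions. HP109 and mi8 each had a peak in 22 of the 28, LMP8 in 5 and OE in none, so no region here was shared by all 4 lists. The remaining regions were 6 in HP109 alone, 6 in mi8 alone and 5 in HP109, LMP8 and mi8. The pileups of the 11 members ran from 10 to 20 in HP109 and from 10 to 23 in mi8, with a median of 15 in each. Other crowded windows held more shared regions. The one in Slc7a11, the cystine transporter, had 10 members among 48 regions, of which 16 were in all 4 lists. Windows at Malt1, a protease of NF-kB signalling, at Rrbp1 and at Tgm2 held 9 members each, among 31, 35 and 20 regions. The windows were picked by their counts of members. Across all members, the nearest other member lay a median of 25130 bp away, and 4.05% had one within 1000 bp.

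The 248 promoters that members overlap had a median observed-to-expected CpG ratio of 0.383, against 0.386 in all promoters and 0.766 under regions in all 4 lists. A ratio above 0.6 was found in 29.0% of them, against 71.5% of promoters under regions in all 4 lists and 36.0% of all promoters. Among the other patterns of 2 lists the share was 38.6% of 132 promoters for LMP8 with mi8, 22.4% of 49 for HP109 with LMP8, 16.7% of 12 for OE with mi8 and 30% of 10 for HP109 with OE, so values on both sides of that of the members occurred. Their GC content had a median of 55.3%, against 61% under regions in all 4 lists and 53% in all promoters. Letters of 7 motifs were searched on both strands, and none of the motifs contains another. TGANTCA, the AP-1 site, was in 9.68% (6.30 to 14.1) of the 248 promoters and in 7.85% of all promoters. The interferon-response type, GAAA followed by 2 free bases and GAAA, was in 5.24% (2.82 to 8.80) of the 248 and in 3.45% of all promoters. GGAAGT, of the ETS type, was in 25.4% (20.1 to 31.3) of the 248 and in 23.9% of all promoters. The E-box CACGTG, which Mga and Max can bind, was in 5.65% (3.12 to 9.29) of the 248 and in 7.20% of all promoters. TTCCCGCC, of the E2F type, was in 1.61% (0.441 to 4.08) of the 248 and in 2.20% of all promoters. The cyclic AMP element TGACGTCA was in 1.21% (0.250 to 3.49) of the 248 and in 1.80% of all promoters, and the YY1 motif in 0.403% (0.0102 to 2.23) of the 248 and in 1.35% of all promoters. Every interval includes the share in all promoters. Promoters under regions in all 4 lists had AP-1 in 5.45%, below the interval of the members. Those promoters had the E-box in 10.4% and YY1 in 3.08%, above the intervals of the members, and for the other motifs the intervals held their share. For LMP8 with mi8, AP-1 and the E-box were each in 9.09% of 132 promoters, inside the intervals of the members. The source of these differences was not tested, and the letters describe the windows without marking a bound site.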

How the data were processed

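The authors deposited 1 narrowPeak list per vector, called against a single input library; per the submitters' processing notes, BWA, Picard and MACS2 were used with build mm10. Versions, thresholds and depths were not given in the sources used here. By their names the lists were made after downsampling. Each peak has a fold from the authors, the ratio of its summit pileup to local background, and 2 deposited values, −log10 p and −log10 q, for its excess over that background.

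Peaks on 19 autosomes and X were merged, and a region was present in a list where at least 1 bp overlapped. Pileup and background were solved from fold and −log10 p (tolerance 0.001), with MACS2's added 1. Background for an absent list was scaled by the median ratio over shared regions, 0.952 for HP109 over LMP8 and 1.03 for OE over mi8. Positions used 21631 protein-coding RefSeq genes, ends within 1000 bp and nearest genes within 100 kb. Python 3.11.15, NumPy 2.4.6, pandas 2.3.3, SciPy 1.17.1 and matplotlib 3.10.9 were used. The functions were tested on simulated intervals. The members and gene lists were chosen with earlier results of these data known. Of 335 list entries, March1 and Cxcl11 were not matched.

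Named were the 15 strongest members, the 15 genes with the strongest end member and all listed genes with an end member. Also named were the 10 genes with most members inside and each list's leading gene. So were 5 members of the lowest strength, taken by position among ties, and the 5 strongest regions kept out. Crowded windows, microRNAs and further genes of the lists were picked after their values were seen. Some genes are not reported here. The alternatives were another overlap, list length, threshold, merging distance, absence rule, gene end window and gene distance.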

Additional observations from a re-analysis of the deposited data

How the results depend on the processing

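The number of members moved with list length and with no other setting tried by over 1.5 times: 2888 with all lists cut to 111488 peaks, and 2374 with equal length within each pair of vector and control, a setting chosen after seeing the data. With all lists cut, 1204 of these regions were members as deposited. At a −log10 q of at least 10 the pattern held 12186 regions, but only 617 were members as deposited, and at 5 it held 13939 with 6549, so values at these thresholds describe mostly other regions. The mi8 share among regions in HP109 and not LMP8 was 51.3% and 41.3% in these settings, 88.9% and 90.9% at a −log10 q of at least 5 and 10, and 89.4% with no absent-list peak within 500 bp. The share of members at a gene end was 8.27% at a −log10 q of at least 10, 6.57% with peaks within 100 bp merged, 5.04% with no absent-list peak within 500 bp and 6.74% at equal length within pairs. It was 4.08% for a window of 500 bp, against 8.73% of all regions, and 15.8% for 2500 bp, against 20.8%, so members stayed below all regions. The share inside a gene span was 56.7% with no absent-list peak within 500 bp and 55.1% at equal length within pairs. The cause of these shifts was not tested. Requiring 50 bp of overlap changed no value, since every merged region holds its peaks whole. Within 20 kb, 130 listed genes had a member, against 146 within 100 kb. The counts of single lists changed too: PRC1.6 and core Polycomb genes had 9 members of 165 regions within 20 kb, against 20 of 261 within 100 kb. Of the 15 strongest members, 14 were kept with peaks within 100 bp merged and 13 with no absent-list peak within 500 bp. All 15 were kept in the other settings. That was fixed in advance for thresholds and list lengths, which cut on the −log10 q that ranked them, and for the 50 bp overlap.

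No paired analysis was possible because each vector has 1 pooled list. Pooling also leaves no spread between libraries, and the lists give no signal where no peak was called, so absence means only that the threshold was not passed. The median pileups of 12 in HP109 and 15 in mi8 set the counting precision of a single member.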
